A study of Mus musculus with 60 samples.

Results

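Clock output transcription factors are the DNA-binding proteins that carry the time kept by the circadian clock to the rest of the liver's genes. The 8 genes described here are Dbp, Tef, Hlf, Nfil3, Bhlhe40, Bhlhe41, Ciart and Rora. They are listed by gene symbol, with no measured value in the rule, and are 8 of the 38204 genes in the deposited table. The RPKM of a gene is the sum over its transcripts, and the 8 genes have 41 transcripts.

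In the core clock the activators Clock and Arntl bind E-box sequences and drive genes such as Per1, Per2, Per3, Nr1d1, Dbp and Ciart, and the PER, CRY and REV-ERB proteins then repress that drive. Dbp, Tef and Hlf are the PAR bZIP activators, which bind D-box sites in target genes such as Por, Alas1, Cyp2a5 and Nr1i3, and Nfil3 represses through the same sites. Bhlhe40 and Bhlhe41 are E-box repressors, Ciart is a repressor that acts on the CLOCK and ARNTL complex, and Rora activates through ROR response elements that the REV-ERB repressors also occupy. In mouse liver the transcripts of most of these genes are known to rise and fall over the day.

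Left liver lobes came from male C3H/HeNCrl mice that were 8 to 10 weeks old at the start, a strain prone to liver tumours. Control mice were not irradiated, and the other mice received 0.2 Gy to the whole body as 56Fe ions (600 MeV per nucleon), 16O ions (1 GeV per nucleon) or 28Si ions (350 MeV per nucleon). Livers were taken at 1, 2, 4, 9 and 12 months, which gives 20 groups of 3 mice and 60 libraries of ribosome-depleted RNA. The 3 controls of a time point serve the comparisons with all 3 ions, and the hour at which each liver was taken is not given in the sources used here.

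The libraries held 11412665 to 40568208 mapped read pairs, with a median of 18891345. The share of them in annotated transcripts moved with the time point, from 46.58% to 66.4% at 1 month and 43.42% to 62.27% at 2 months to 56.01% to 84.68% at 4 months, 74.17% to 88.45% at 9 months and 70.79% to 83.73% at 12 months. The 56.01% belongs to 28Si replicate 2 at 4 months, and the other libraries of 4 months had 73.28% or more. The defining hepatocyte markers Alb and Ttr were high in every library, with Ttr at 1235 RPKM or more, while all 9 lymphocyte markers stayed at or below 0.9496 RPKM. In whole liver, fewer cells of a type and less RNA per cell cannot be told apart.

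The library of 16O replicate 2 at 12 months stood apart. Of 12731 genes, 6.991% differed more than 4-fold from its 2 group mates, against a median of 0.267% over the libraries. In this library Saa3, an acute phase serum amyloid gene, was at 3337 RPKM, against at most 33.22 RPKM in the other 59 libraries, and Lbp, the lipopolysaccharide-binding protein gene, was at 321.5 RPKM against at most 111.1. Marco, a macrophage scavenger receptor of the Kupffer cell list, was at 63.7 RPKM in it, and was also high in control replicate 2 (45.2 RPKM) and 56Fe replicate 1 (112.1 RPKM) of that time point. The 12-month differences of the 4 members it moved, the time tests and the correlations are given with and without it.

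Ciart is the member with the most E-boxes near its start, and the DNA just before its first exon is shown because Ciart had the largest fold between groups. RefSeq gives 7 of the 8 members a promoter entry in build GRCm38.p6, with 250 bases before and 50 after the start, and Tef has 2 entries. Bhlhe40 has none there. The stretch of Ciart below lies at chr3:95882252-95882478 on the minus strand, with no annotated exon in it, and its capitals mark the 3 matches to CACGTG, at 116, 58 and 44 bases before the start.
Ciart: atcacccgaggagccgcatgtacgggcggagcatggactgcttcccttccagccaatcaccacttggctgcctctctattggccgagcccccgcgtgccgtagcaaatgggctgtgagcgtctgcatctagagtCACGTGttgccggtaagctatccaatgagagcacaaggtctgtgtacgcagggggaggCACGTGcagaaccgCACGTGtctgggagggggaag

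The other members with a match outside annotated exons are Tef and Bhlhe41, each with 1, and shorter stretches around the match are shown for comparison. The Tef stretch is at chr15:81811256-81811301 on the plus strand, before the second of its RefSeq starts, and the Bhlhe41 stretch is at chr6:145865559-145865593 on the minus strand. Capitals again mark CACGTG, which starts 138 and 153 bases before the respective RefSeq start.
Tef: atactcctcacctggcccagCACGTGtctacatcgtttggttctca
Bhlhe41: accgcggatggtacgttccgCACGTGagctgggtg

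CACGTG reads the same on both strands and was found in 7.15% of the 32851 mouse promoters of this table. The first Tef promoter also holds it once. The D-box, searched as TTATGTAA or TTACGTAA on both strands, was in 0 of the 8 promoters of the 7 matched members and in 1.06% of all promoters. The ROR element core, searched as TAGGTCA or TGGGTCA on both strands, was in the Nfil3 promoter alone among the members and in 6.45% of all promoters. These matches describe letters in a window and do not show binding.

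By summed RPKM, which is a level per transcript length, Tef was the highest member with a median of 61.1 over 60 libraries, followed by Dbp at 52.3, Bhlhe40 at 20.8, Rora at 15.9, Hlf at 10.4, Nfil3 at 5.28, Ciart at 2.29 and Bhlhe41 at 1.34. Ciart and Bhlhe41 rest on few reads, with medians of 57 and 118 estimated reads per library. Ciart also had the widest spread of group means, 16.4-fold from 28Si at 1 month (0.276 ± 0.0726, SD, n = 3) to 16O at 12 months (4.54 ± 0.182). Tef, Dbp, Bhlhe40, Bhlhe41 and Ciart all had their lowest group mean in 28Si at 1 month. Hlf had its lowest in 28Si at 9 months, and Nfil3 and Rora had theirs in 16O at 1 month.

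**Figure D1:**
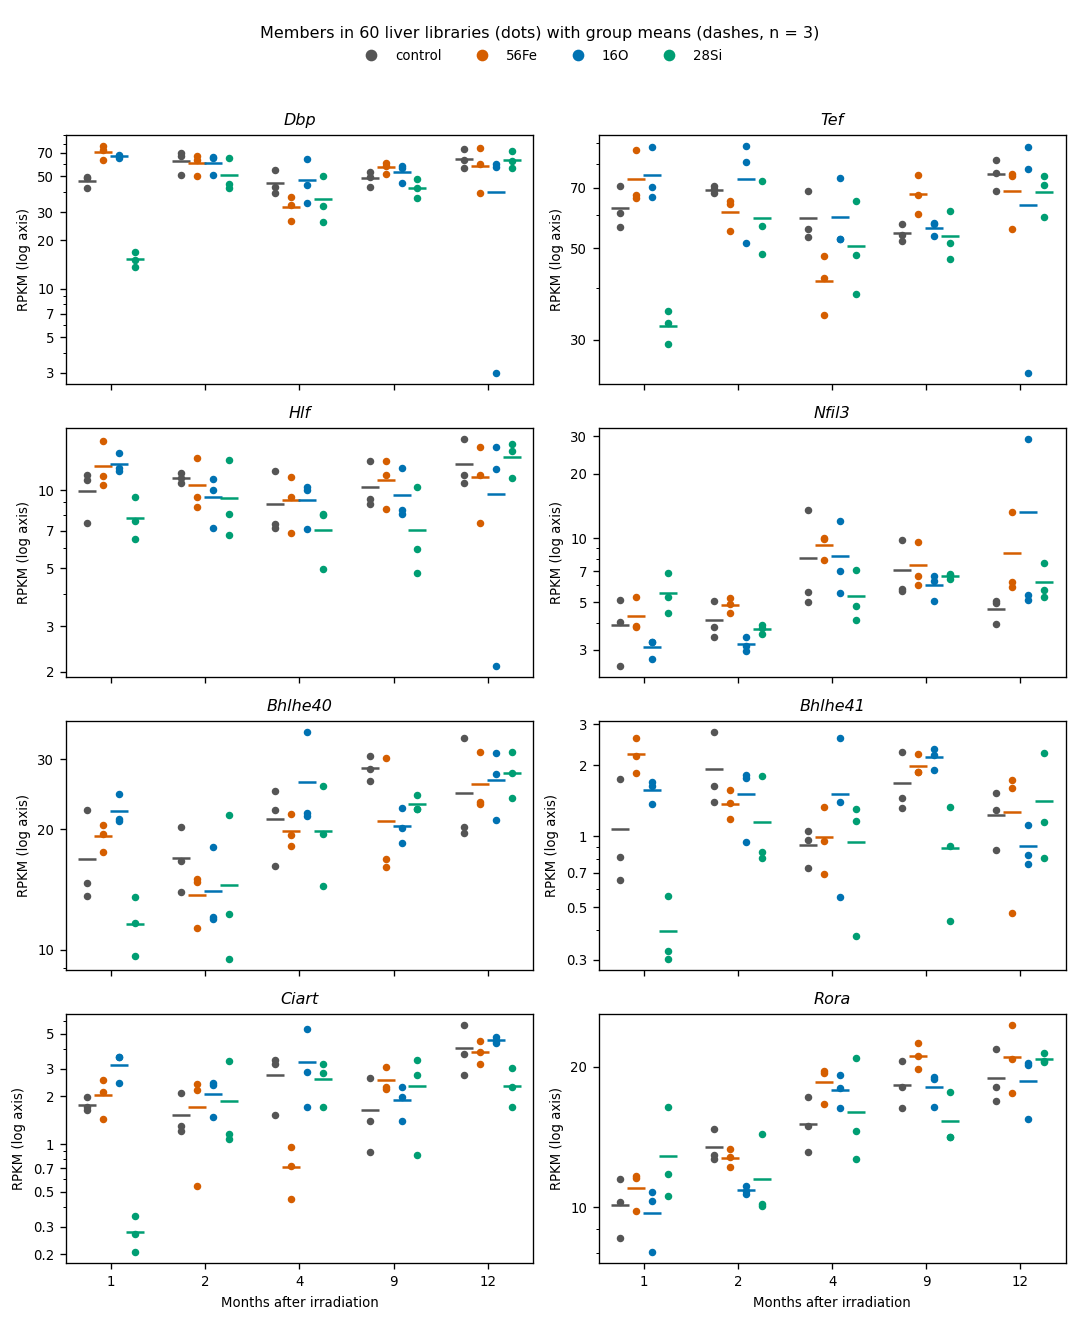
Summed RPKM of the 8 members (log axis) against months after irradiation, 1 dot per library and 1 dash per group mean (n = 3), coloured by treatment. The 3 libraries of 28Si at 1 month sit lowest in Ciart (0.207 to 0.352 RPKM) and, but for 1 library at 12 months, in Dbp (13.7 to 16.9 RPKM), and the single 16O dot at 12 months is at 3 RPKM in Dbp and 29 RPKM in Nfil3.

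At 1 month the members differed most between treatments. Dbp and Ciart fell in 28Si mice, Dbp rose moderately in 56Fe and 16O mice, and the other members did not pass this test against control in any ion. With limma-voom on estimated reads 3 further differences passed, Bhlhe41 in 56Fe, Hlf in 16O and Tef in 28Si mice. A gene is called here at an adjusted p of at most 0.05 in limma. Of all genes tested, 1.18% were called in 56Fe, 1.6% in 16O and 0.244% in 28Si against control, and of the 8 members 1, 1 and 2 were.

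Dbp, the PAR bZIP activator with the strongest daily rhythm known among the family in liver, was at 42.1, 49.2 and 48.6 RPKM in the 1-month controls. It was at 15.2, 13.7 and 16.9 RPKM in 28Si mice, and all 3 were below every control. It was at 77.1, 73.1 and 63.5 RPKM in 56Fe mice and at 67.5, 65.3 and 67.2 RPKM in 16O mice, all above every control. The log2 difference from control was -1.66 in 28Si (SE 0.14, adjusted p = 0.00179), 0.64 in 56Fe (SE 0.12, adjusted p = 0.0319) and 0.56 in 16O (SE 0.12, adjusted p = 0.0483). The last of these lost its call when any of its 6 libraries was left out, and the 56Fe call was lost without any of 5 of its 6 libraries, with adjusted p up to 0.191 in 56Fe and 0.194 in 16O. The 28Si call held without each of the 6, with adjusted p of 0.00404 to 0.0175, and was lost only in the fit of all 60 libraries (0.0551).

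Ciart was at 1.98, 1.63 and 1.71 RPKM in controls and at 0.352, 0.207 and 0.27 RPKM in 28Si mice, which is 47 to 58 against 7 to 9 estimated reads. No 28Si library overlapped a control. The log2 difference was -2.38 (SE 0.23, adjusted p = 0.00462). Ciart passed the filter of 0.5 RPKM in 3 libraries through its controls alone, so this call is not independent of the filter, and without any filter the adjusted p was 0.0206. Without a control library, or with its highest transcript alone, it was below the filter and gave no value. In 16O mice Ciart was at 3.57, 2.42 and 3.55 RPKM, again with no overlap, but the difference of 0.83 (SE 0.18) had an adjusted p of 0.057.

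Tef, a PAR bZIP activator, was at 33, 29.3 and 35.3 RPKM in 28Si mice against 60.8, 70.6 and 56.2 RPKM in controls. The groups did not overlap, and the log2 difference of -0.99 (SE 0.16) had an adjusted p of 0.0527, just outside the threshold. It passed with protein-coding transcripts alone (0.0192), in the fit of the 12 libraries of the time point (0.00767) and with limma-voom (0.0183). Hlf, the remaining PAR bZIP activator, gave 0.40 in 16O (SE 0.16, adjusted p = 0.294, with limma-voom 0.0414), with 13.9, 12.2 and 11.8 RPKM, all above every control. In 28Si it gave -0.39 (SE 0.16, adjusted p = 0.344), and its 28Si values of 9.44, 6.5 and 7.58 RPKM overlapped the control values of 7.48, 11.4 and 11 RPKM.

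Nfil3, the D-box repressor, was at 6.83, 5.31 and 4.46 RPKM in 28Si mice and at 2.52, 4.06 and 5.13 RPKM in controls. These overlapped, with a log2 difference of 0.48 (SE 0.20, adjusted p = 0.366). The E-box repressors Bhlhe40 and Bhlhe41 gave -0.57 (SE 0.16, adjusted p = 0.225) and -1.21 (SE 0.33, adjusted p = 0.214) in 28Si. Bhlhe40 was at 11.7, 9.62 and 13.5 RPKM against 14.7, 13.7 and 22.3 RPKM, close to the lower controls but without overlap. Bhlhe41 was at 0.325, 0.302 and 0.56 RPKM against 0.818, 0.651 and 1.76 RPKM, without overlap but with a wide control group. In 56Fe mice Bhlhe41 had the largest difference of any member, 1.11 (SE 0.27, adjusted p = 0.0846, with limma-voom 0.00611), at 2.19, 2.63 and 1.86 RPKM, all above every control. Of all genes tested, 12.6% had no overlap with control in 56Fe, 14.7% in 16O and 10.8% in 28Si mice at 1 month, and of the 8 members 2, 3 and 5 did. Overlap was read on deposited RPKM here and at the later time points, while the log2 differences and tests use scaled values. Divided by the library factors of the fit of all 60 libraries, Hlf in 16O at 1 month overlapped control. Rora, the activator through ROR elements, gave 0.28 (SE 0.13, adjusted p = 0.386).

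**Figure D2:**
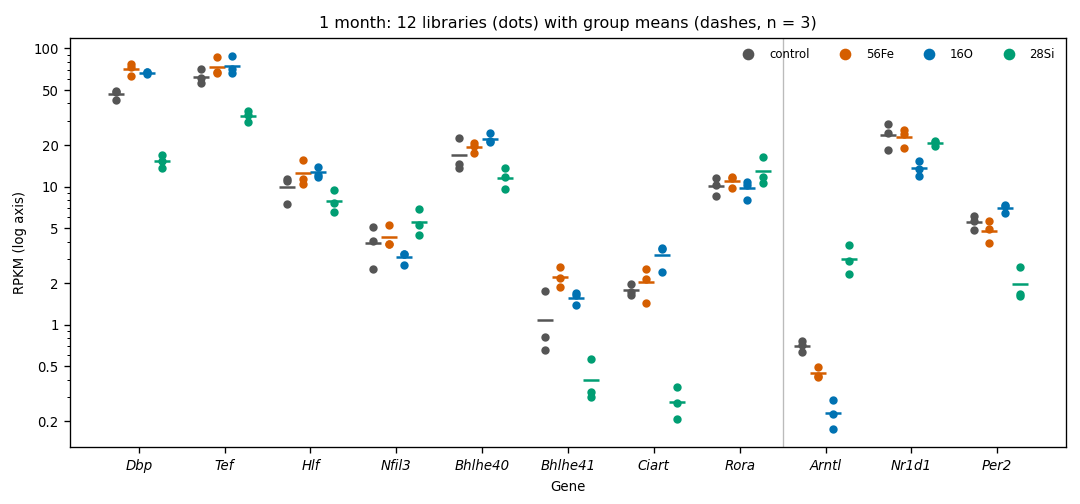
RPKM (log axis) of the 8 members and of the core clock genes Arntl, Nr1d1 and Per2 in the 12 libraries of 1 month, 1 dot per mouse and 1 dash per group mean (n = 3). The 28Si dots lie below the other 9 libraries in Dbp, Tef, Bhlhe40, Bhlhe41, Ciart and Per2 and above them in Arntl (2.31 to 3.8 RPKM against at most 0.76 RPKM).

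At 1 month more genes and members were called between 28Si and either other ion than between any ion and control. Of all genes tested, 9.37% were called between 56Fe and 28Si and 13.8% between 16O and 28Si, with 6 and 7 of the 8 members called. Between 56Fe and 16O 0.199% of genes and 0 members were called, with 2 members at an unadjusted p under 0.05 and 0 called by limma-voom. The pairs with 28Si share its 3 libraries, so their values are not independent of each other. Ions were compared with each other in 12 libraries but with control in 6, with the spread pooled over the groups of each fit. The percentages of all genes called between ions and against control therefore mix the power of the fit with the size of the differences. For the members like fits were available. With 6 libraries 13 member calls were made between ions and 4 against control, and with 12 libraries 13 and 5.

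The PAR bZIP activators were all higher in 56Fe than in 28Si mice. The log2 difference was 2.27 for Dbp (SE 0.11, adjusted p = 7.61e-08), 1.22 for Tef (SE 0.15, adjusted p = 0.000385) and 0.71 for Hlf (SE 0.15, adjusted p = 0.0094). Between 16O and 28Si it was 2.20 for Dbp (adjusted p = 8.35e-08), 1.27 for Tef (0.00016) and 0.77 for Hlf (0.004). Nfil3, which represses at the same sites, was lower in 16O than in 28Si mice by a log2 difference of -0.73 (SE 0.19, adjusted p = 0.0201), with 2.71, 3.25 and 3.27 RPKM against 6.83, 5.31 and 4.46 RPKM and no overlap. In 56Fe against 28Si it gave -0.29 (SE 0.19, adjusted p = 0.36).

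The E-box repressors moved in the direction of Dbp. The largest difference of any member was that of Ciart between 16O and 28Si, 3.19 (SE 0.20, adjusted p = 8.33e-07), and it was 2.54 between 56Fe and 28Si (adjusted p = 2.22e-05). Both Ciart calls were lost when only its highest transcript was used (adjusted p = 0.104 and 0.113). Bhlhe41 gave 2.30 (SE 0.27, adjusted p = 0.000268) and 1.85 (0.000734), and Bhlhe40 gave 0.79 (SE 0.14, adjusted p = 0.0033) and 1.02 (0.000382). Bhlhe40 was at 20.6, 19.5 and 17.6 RPKM in 56Fe mice and at 24.6, 21.3 and 21 RPKM in 16O mice, all above its 28Si values of 11.7, 9.62 and 13.5 RPKM. Rora was not called, with -0.15 (SE 0.12) and -0.32 (SE 0.12, adjusted p = 0.0923).

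The core clock genes moved at the same time point. Arntl, the partner of Clock in the activator complex, was at 3.8, 2.31 and 2.88 RPKM in 28Si mice and at 0.76, 0.635 and 0.71 RPKM in controls, a log2 difference of 1.87 (SE 0.18, adjusted p = 0.00462). Per2, a repressor, gave -1.54 (SE 0.24, adjusted p = 0.0434), and Nr1d1, which encodes REV-ERB alpha, gave -0.23 (SE 0.14, adjusted p = 0.51). Of the remaining list genes called in 28Si, the largest differences were those of Per1 (-1.86, adjusted p = 0.00179), Noct (-1.85, 0.0116) and Per3 (-1.77, 0.035), a pair of PER repressors and a deadenylase.

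In 16O mice at 1 month Arntl gave -1.27 (SE 0.28, adjusted p = 0.0562), Nr1d1 -0.75 (SE 0.15, adjusted p = 0.0364) and Per2 0.36 (SE 0.17, adjusted p = 0.417). The largest other list genes called there were Lpin1, a phosphatidate phosphatase gene (1.25), Usp2, a deubiquitinase gene (1.20), and Fkbp5, a glucocorticoid-induced co-chaperone gene (1.11). In 56Fe mice Arntl (-0.53, adjusted p = 0.41), Nr1d1 (-0.01, 0.991) and Per2 (-0.19, 0.721) did not pass, and the list genes with the largest differences were Tat (-1.26), which encodes tyrosine aminotransferase, Cyp7a1 (-0.92), the rate-limiting enzyme of bile acid synthesis, and Gys2 (0.79), liver glycogen synthase.

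Between 16O and 28Si at 1 month, Arntl gave -3.16 (adjusted p = 8.33e-07), Per2 1.89 (9.32e-05) and Nr1d1 -0.54 (0.0237), and Usp2 (3.86), Pdk4 (-2.44) and Rgs16 (2.41) led the remaining list genes. Between 56Fe and 28Si, Arntl gave -2.42 (2.52e-05), Per2 1.32 (0.00197) and Nr1d1 0.20 (0.416), led by Usp2 (3.23), Rgs16 (2.53) and Elovl3 (-2.32). Pdk4 encodes a pyruvate dehydrogenase kinase, Rgs16 a regulator of G protein signalling and Elovl3 a fatty acid elongase.

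Among 9 PAR bZIP target genes, 8 were tested in 28Si against control at 1 month and 1 passed, Por, which encodes cytochrome P450 reductase (-0.87, adjusted p = 0.0199). The median log2 difference of the 8 was -0.72, beside -0.01 over all genes tested. Between 16O and 28Si, 6 of 9 passed, 5 higher and 1 lower in 16O, with a median of 0.73 beside 0.00 over all genes. Between 56Fe and 28Si, 4 of 9 passed, 3 higher and 1 lower in 56Fe. Cyp2a5, a coumarin hydroxylase gene, was at 200.6, 233.9 and 218.1 RPKM in 16O mice and at 88.8, 50.1 and 66.9 RPKM in 28Si mice. Of the 7 clock repressors of the PER, CRY and REV-ERB arms, 3 were lower in 28Si mice than in controls, and of 9 further genes known to cycle in liver 8 were tested, with 1 higher and 1 lower.

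Against control in 16O mice, 1 of 7 clock repressors was lower and 5 of 9 further cycling genes were higher, with a median of 0.80 over the latter, and 1 of 8 PAR bZIP targets tested was higher. In 56Fe mice 0 of 7 clock repressors and 1 of 9 further cycling genes passed, the latter higher, and of 8 PAR bZIP targets tested 1 was higher and 1 lower. Of 10 genes with ROR response elements, 9 were tested in 28Si against control, and 2 passed, Arntl and Elovl3, both higher.

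Values of other cell types and of library quality stood as follows at 1 month. The summed level of the 6 Kupffer cell markers was 31.57 to 40.41 RPKM in 28Si mice and 29.3 to 42.39 RPKM in controls, and 0 of the 6 passed the test. It was 34.79 to 52.85 RPKM in 56Fe and 31.22 to 34.8 RPKM in 16O mice, again with 0 of 6 called against control. The 5 hepatocyte markers summed to 20740 to 28280 RPKM in 28Si mice and to 19100 to 28390 RPKM in controls, and 0 of the 5 passed. The 9 lymphocyte markers, 0 of which passed the filter, summed to 0.6527 to 0.7338 RPKM in controls, 1.445 to 1.544 RPKM in 56Fe, 0.3028 to 1.089 RPKM in 16O and 0.9837 to 1.443 RPKM in 28Si mice. The 7 hypoxia genes summed to 66.8 to 88.09 RPKM in controls, 62.33 to 75.22 RPKM in 56Fe, 74.8 to 83.16 RPKM in 16O and 52.5 to 65.25 RPKM in 28Si mice, with 0 called against control in any ion. Their part in the member differences was not tested. The share of read pairs in transcripts was 49.55% to 66.4% in 28Si mice and 46.58% to 62.41% in controls. The hour of the day, for which the sources used here give no value, was not tested.

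**Figure D3:**
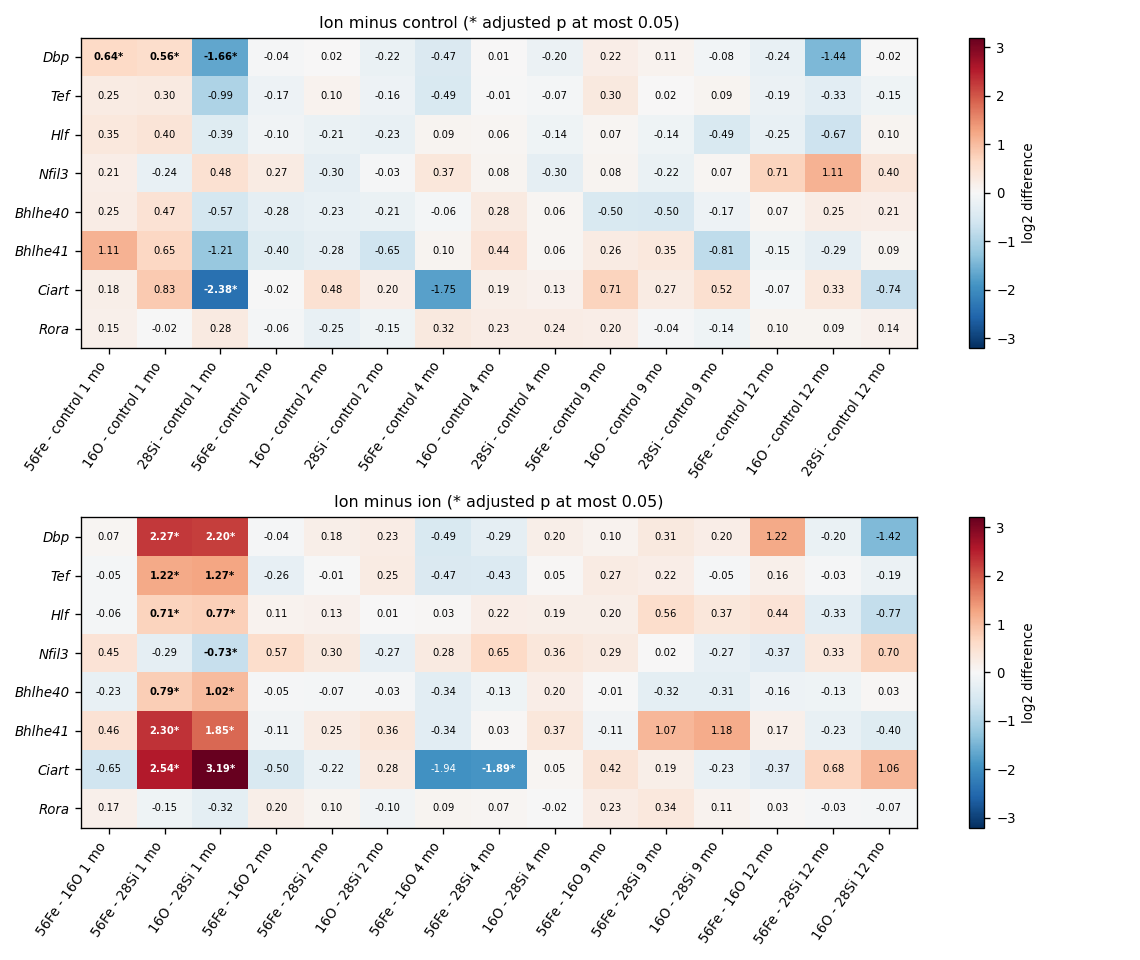
Log2 differences of the 8 members for ion minus control (upper grid) and ion minus ion (lower grid) at the 5 time points, on a colour scale from blue (lower) to red (higher), with an asterisk for an adjusted p of at most 0.05. All asterisks but that of Ciart between 56Fe and 28Si at 4 months (-1.89) are at 1 month.

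After 1 month few member differences passed. Against control, 0 of 8 members were called in any ion at 2, 4, 9 or 12 months, as were 0 by limma-voom, and 0 to 4 of 8 per comparison had an unadjusted p under 0.05. The percentages of all genes called were 0% in 56Fe, 0% in 16O and 0.0181% in 28Si at 2 months, 0.541%, 0% and 0.382% at 4 months, 3.65%, 1.11% and 0.124% at 9 months, and 0%, 0.00878% and 0.0176% at 12 months.

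The largest late difference of a member from control was that of Ciart in 56Fe mice at 4 months. Ciart was at 0.451, 0.724 and 0.955 RPKM, on 14 to 23 estimated reads, against 1.53, 3.4 and 3.23 RPKM in controls. The groups did not overlap, as for 17.2% of all genes in this comparison, and the log2 difference was -1.75 (SE 0.35, adjusted p = 0.0782). Without control replicate 1, its lowest control, it passed at 0.0421. Dbp at 26.4, 33.2 and 37.2 RPKM (control 42.7, 54.6 and 39.5 RPKM) and Tef at 34.5, 42.4 and 48 RPKM (control 55.7, 68.8 and 53.2 RPKM) were also below every control, with log2 differences of -0.47 (adjusted p = 0.231) and -0.49 (0.185).

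Arntl was higher in the same 56Fe mice, at 2.35, 2.64 and 1.27 RPKM against 0.511, 0.322 and 0.422 RPKM in controls. The log2 difference was 2.06 (SE 0.30, adjusted p = 0.0288). Arntl passed the filter of 0.5 RPKM in 3 libraries through its 56Fe libraries, so this call is not independent of the filter. Its controls held 14 to 26 estimated reads. Between 56Fe and 28Si at 4 months, where 0.981% of genes were called, Ciart was the 1 member called, at -1.89 (SE 0.38, adjusted p = 0.0392). That call was lost without any of the 6 libraries of these 2 groups, with adjusted p up to 0.146, and with limma-voom. In this comparison Arntl (1.60, adjusted p = 0.0719), Per2 (-0.71, 0.0512) and Nr1d1 (1.22, 0.0967) did not pass, and the list genes with the largest differences were Alas1, the first enzyme of haem synthesis (-2.22), Usp2 (-2.19) and Fgf21, a fasting hormone (1.64).

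In the other late ion pairs 0 members were called. The percentages of all genes called were 0.374% for 56Fe against 16O, 1.17% for 56Fe against 28Si and 0.582% for 16O against 28Si at 2 months, 0.0688% for 56Fe against 16O and 0.318% for 16O against 28Si at 4 months, 0%, 0.255% and 0.383% in the same order as at 2 months at 9 months, and 0%, 0% and 0% at 12 months. Without 16O replicate 3, Tef passed at 2 months against 56Fe (adjusted p = 0.0154) and against 28Si (0.0103). That library held 51.4 RPKM of Tef against 88.2 and 80.6 RPKM in its mates.

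Bhlhe40 was lower at 9 months in 16O mice, at 18.5, 20.1 and 22.6 RPKM against 26.5, 28.3 and 30.5 RPKM in controls. There was no overlap, as for 20.3% of all genes in this comparison, and the log2 difference of -0.50 (SE 0.12) had an adjusted p of 0.0906. In 28Si mice it was at 22.5, 22.6 and 24.4 RPKM, also below every control, as 19.5% of all genes did not overlap, with a difference of -0.17 (SE 0.11, adjusted p = 0.553). In 56Fe mice Bhlhe40 gave the same difference, -0.50 (SE 0.20, adjusted p = 0.149), with 1 mouse at 30.1 RPKM and the remaining pair at 16.1 and 16.9 RPKM, and it passed at 0.0188 without that mouse.

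Nfil3 at 12 months was above every control in all 3 ions, at 13.3, 5.91 and 6.26 RPKM in 56Fe, 5.43, 29 and 5.15 RPKM in 16O and 7.63, 5.69 and 5.28 RPKM in 28Si, against 4.96, 5.06 and 3.95 RPKM. The controls are shared by the 3 comparisons, and 7.94%, 7.69% and 11.2% of all genes did not overlap in them. Divided by the library factors of the fit of all 60 libraries, Nfil3 in 16O overlapped control. The log2 differences of 0.71 (SE 0.32), 1.11 (SE 0.72) and 0.40 (SE 0.17) had adjusted p of 0.9998, 0.9915 and 0.642. Without 16O replicate 2 the 16O difference was 0.21 (SE 0.18, adjusted p = 0.947). The summed Kupffer cell markers were at 44.6 to 264 RPKM in controls, 57.2 to 474.8 RPKM in 56Fe, 53.3 to 285.1 RPKM in 16O and 48.6 to 120.3 RPKM in 28Si mice at 12 months. The highest library of 56Fe and of 16O was also the highest in Nfil3. In controls, where the marker sum reached 264 RPKM, no library exceeded 5.06 RPKM of Nfil3. The part of the Kupffer cell markers in the Nfil3 values was not tested.

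The 16O library that stood apart carried the extreme values of 4 members. In it Dbp was at 3 RPKM against 57.5 and 59.9 RPKM in its mates, Tef at 25 against 87.8 and 77.8 RPKM, Hlf at 2.11 against 12.1 and 14.7 RPKM, and Nfil3 at 29 against 5.43 and 5.15 RPKM. Each of the 4 values lay outside the range of the other 59 libraries. Bhlhe40, Bhlhe41, Ciart and Rora lay inside it, with Ciart at 4.73 RPKM against 4.52 and 4.37 RPKM. In 28Si mice at 1 month Dbp and Tef were also low, but Ciart was at 0.207 to 0.352 RPKM. Against control at 12 months 0 members were called with this library and 0 without it. The 16O difference at 12 months was -1.44 for Dbp, -0.67 for Hlf and -0.33 for Tef with it, and -0.11, 0.12 and 0.15 without it.

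**Figure D4:**
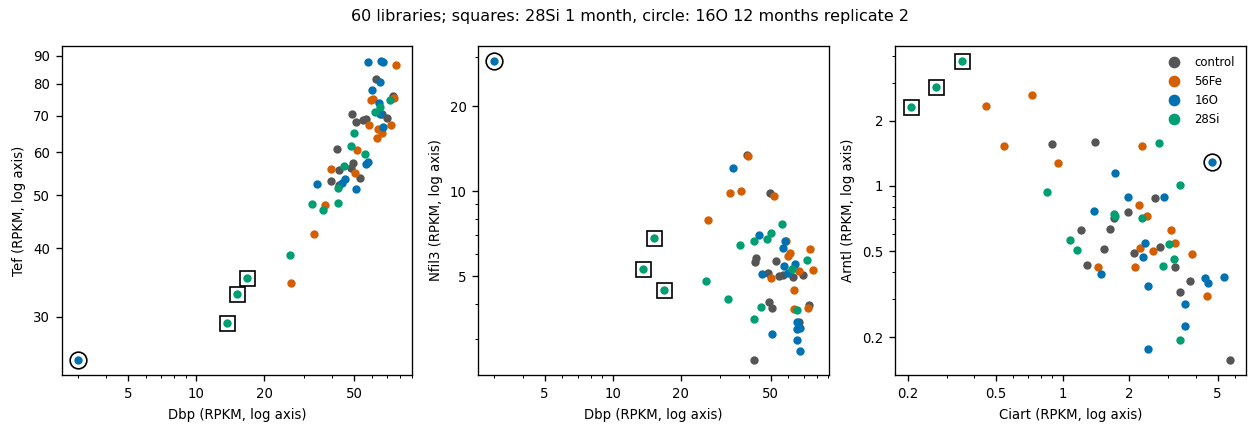
Tef against Dbp, Nfil3 against Dbp and Arntl against Ciart in 60 libraries (RPKM, log axes), coloured by treatment, with squares around 28Si at 1 month and a circle around 16O replicate 2 at 12 months. The squared libraries lie at the low end of Ciart and the high end of Arntl, while the circled one lies at the low end of Dbp and the high end of Nfil3 with Ciart at 4.73 RPKM.

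Across time within a treatment, levels were compared after scaling, because deposited RPKM moved with the share of reads in transcripts. An F test over the 5 time points called 5 of 8 members in control, 7 in 56Fe, 4 in 16O and 5 in 28Si mice. Of all genes, 58.1%, 55%, 45.6% and 55.1% were called in these 4 fits, so a call was common among all genes, and with 8 members nothing is read from their counts. Time point and whatever else differed between the mice and libraries of a time point cannot be told apart.

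In controls Dbp was highest at 2 months, with a scaled RPKM of 74.1 ± 7.42 (SD, n = 3), against 57.1 ± 5.61 at 1 month, 39.5 ± 6.33 at 4 months, 41.4 ± 4.69 at 9 months and 55.7 ± 5.79 at 12 months (adjusted p = 9.53e-05). Tef was also highest at 2 months, at 82.8 ± 4.36, and lowest at 9 months, at 46.3 ± 1.79 (adjusted p = 0.000156). In deposited RPKM the highest control mean of Dbp, Tef and Hlf was at 12 months instead, at 64.6, 75.5 and 12.6 RPKM against 62.4, 69.3 and 11.2 RPKM at 2 months. Hlf (adjusted p = 0.0116) and Bhlhe41 (0.0105) were also called, both highest at 2 months and lowest at 4 months in scaled RPKM. The order depended on the noncoding transcript models in the sums. With protein-coding transcripts alone, divided by the same library factors, control Tef was highest at 12 months and lowest at 1 month. Coding Hlf was then highest at 12 months and still lowest at 4 months. Rora, called at 0.0342, was at 12.3 ± 0.961 at 1 month and 16.3 ± 1.96 at 12 months. Its scaled mean was higher at 2 months than at 4 months, so the course was not a steady rise. The call was lost in 7 of 15 fits that left out 1 library, with adjusted p of 0.0227 to 0.0929 over the 15. Nfil3 (0.397) and Bhlhe40 (0.441) were not called in controls.

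In 28Si mice the time test called Dbp (adjusted p = 8.14e-06), Ciart (0.000567), Tef (0.00058), Hlf (0.00434) and Bhlhe40 (0.0171). Scaled Dbp was at 18.2 ± 2.33 at 1 month and at 34.2 ± 7.13 at 4 months, its next lowest mean, without overlap, and scaled Ciart was at 0.323 ± 0.0483 at 1 month and at 2.07 ± 0.67 at 12 months, its next lowest mean, also without overlap. In 56Fe mice the lowest scaled mean of Dbp, Tef, Hlf and Ciart was at 4 months, and 7 members were called, Nfil3 (0.253) being the exception. Rora and Bhlhe40 were close to the threshold there (0.0431 and 0.0494).

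In 16O mice Tef, Bhlhe40, Ciart and Rora were called, with adjusted p of 0.0476, 0.0381, 0.015 and 0.0301. Without replicate 2 at 12 months 7 were called, Dbp (0.000546), Hlf (0.00115) and Nfil3 (0.0392) among them. Whether an ion's difference from control depended on the time point was tested over all 60 libraries, and 0 members were called for 56Fe, 16O or 28Si, with 1, 2 and 3 of 8 at an unadjusted p under 0.05 and 0 called by limma-voom. Of all genes, 0.966%, 0.864% and 0.0785% were called. Ciart in 28Si was closest, at an adjusted p of 0.0593, and without that 1 16O library Dbp (0.00112) and Ciart (0.0401) passed in 28Si.

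The transcript models behind the sums changed with the time point. The noncoding models were mostly retained introns in Tef, Dbp and Bhlhe40, and processed transcripts without a retained-intron model in Hlf. At 1 and 2 months the share of a gene's RPKM in noncoding models was 42.7% to 58.3% for Tef and 16.4% to 46.4% for Dbp. It was 32.3% to 58.6% for Hlf and 12.7% to 40.6% for Bhlhe40. At 4, 9 and 12 months it was, in this order, 14.4% to 29.7%, 6.86% to 22.2%, 11.2% to 40.3% and 4.26% to 16.8%. Tef had no overlap between the early and late libraries. Over 60 libraries this share correlated with the share of read pairs in transcripts at r = -0.909 for Tef and -0.826 for Dbp, as a description, since points of a time point share their handling.

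**Figure D5:**
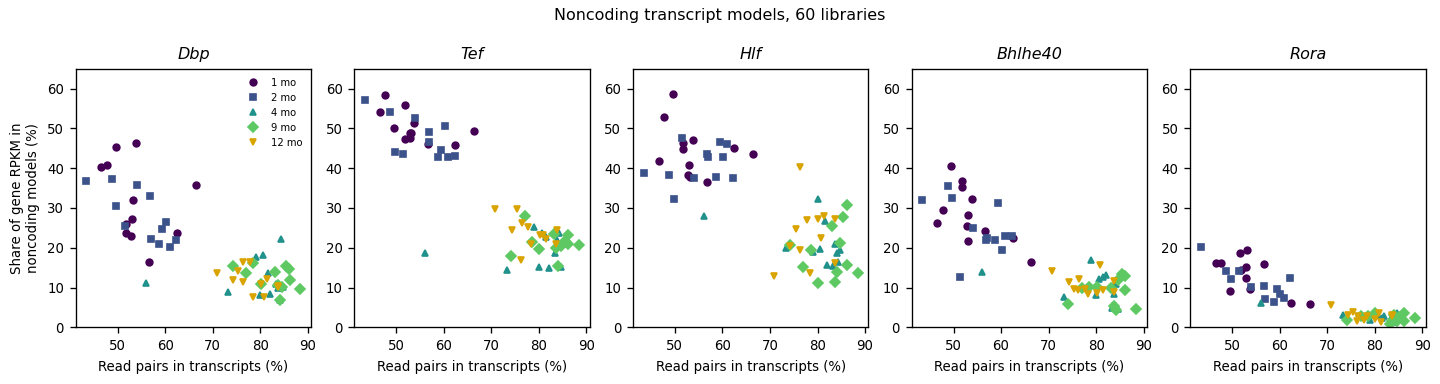
Share of a gene's RPKM in noncoding transcript models against the share of mapped read pairs in transcripts, for 5 members in 60 libraries, with the time point as colour and shape. The libraries of 1 and 2 months lie at the upper left, with Tef at 42.7% or more, and those of 4 to 12 months lower, with Tef at 29.7% or less, and mostly to the right, apart from 28Si replicate 2 at 4 months at 56.01% of read pairs.

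The transcripts that carry most of each gene were as follows. Dbp (chr7:45705088-45710203, plus strand) had 55.1% of its RPKM in the coding transcript ENSMUST00000080885 and 17.3% in the retained-intron model ENSMUST00000211748. Tef (chr15:81802421-81826863, plus strand) was split between the coding ENSMUST00000023024 (34.7%), which starts at its second RefSeq start, ENSMUST00000109553 (27.9%), which starts upstream of the first, and retained-intron models of 15.7% and 14.9%. Hlf (chr11:90336536-90390895, minus strand) had 67.1% in ENSMUST00000004051, and Nfil3 (chr13:52967209-52981073, minus strand) has 1 transcript, of 2 exons.

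Bhlhe40 (chr6:108660629-108666925, plus strand) had 81.7% in ENSMUST00000032194, and Bhlhe41 (chr6:145858243-145865558, minus strand) had 76.7% in ENSMUST00000032386. Ciart (chr3:95878503-95882251, minus strand) was split over ENSMUST00000036418 (48.8%), ENSMUST00000159739 (27%) and ENSMUST00000161994 (14.1%), all coding. Rora (chr9:68653786-69388246, plus strand) had 64% in ENSMUST00000034766 and 30.6% in ENSMUST00000113624, which starts far inside the gene. Coordinates are GRCm38.

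With protein-coding transcripts alone, Dbp and Ciart were called lower in 28Si mice at 1 month, and Tef in addition. Ciart has coding transcripts only, so its values are those above. Coding Dbp was 8.76 ± 1.17 RPKM in 28Si mice and 30.45 ± 6.02 RPKM in controls (SD, n = 3), and coding Tef was 16.2 ± 1.39 against 29.2 ± 1.29 RPKM. With coding transcripts 5 calls against control were made at 1 month in place of 4, and 14 between ions in place of 13. Over time 4, 6, 3 and 6 members were called in control, 56Fe, 16O and 28Si.

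Some members share sequence with genes on the opposite strand, and the strand setting of the counting is not given in the sources used here. The antisense gene C920021L13Rik spans all 3749 bases of Ciart, with a mean of 0.444 RPKM beside 2.35 RPKM for Ciart. Sphk2, a sphingosine kinase gene, overlaps the last 737 bases of Dbp, with a mean of 5.6 RPKM beside 51.1 RPKM for Dbp.

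Over the 60 libraries the PAR bZIP activators rose and fell together. Pearson's r of log2(RPKM + 0.1) was 0.869 for Dbp and Tef, 0.796 for Dbp and Hlf and 0.764 for Tef and Hlf, and 0.911, 0.702 and 0.731 without the 16O library that stood apart. Nfil3 ran against them, at -0.716 with Dbp, or -0.518 without that library. Ciart ran against Arntl at -0.794, or -0.842 without that library, but at -0.464 within groups, after subtracting group means. The ratio of Ciart to Arntl was 0.0897 to 0.0938 in the 3 mice of 28Si at 1 month, with a median of 3.33 over the 59 libraries other than the one apart. These are descriptions over libraries that share groups and time points.

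Rora had r between -0.204 and 0.142 with the other members, and within groups, after subtracting group means, between -0.233 and 0.396, the highest with Hlf. Dbp and Ciart had an r of 0.361, and 0.657 without the library apart, in which Dbp was at its lowest and Ciart was not. Within groups Dbp and Tef had an r of 0.855 and Dbp and Ciart 0.159.

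The genes most like each member, by Pearson's r over 60 libraries among 12731 genes, are given with r, and r without the 16O library apart where it moved by over 0.05. For Dbp they were Pcsk4 (0.94), Ngef (0.911, without it 0.844), Nr1i3 (0.863, without it 0.741), Per3 (0.852) and Tfap4 (0.846, without it 0.75), and for Tef they were Per3 (0.959), Smarca2 (0.883), Ccdc57 (0.867), Dmac2 (0.861) and Ttc7 (0.853). For Hlf they were Hykk (0.895), Ppargc1b (0.889), Cdk18 (0.871), C77080 (0.87) and Pdk2 (0.867). Nr1i3 encodes the nuclear receptor CAR and Ppargc1b a coactivator.

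For Ciart they were Usp2 (0.822, without it 0.896), Coq10b (0.808), Nrg4 (0.745), Per1 (0.742) and Lonrf1 (0.735). For Bhlhe40 they were Slc20a1 (0.678), Klf10 (0.655), Lrrc28 (0.617), Mfsd2a (0.564) and Tob2 (0.546), and for Bhlhe41 Zfp526 (0.747), Ripor3 (0.718), Sipa1l2 (0.679), Syne3 (0.677) and Pcsk4 (0.672, without it 0.783). For Rora they were Herpud2 (0.702), Dsc2 (0.692), Prpf8 (0.688), Samd8 (0.685, without it 0.764) and Spop (0.684). Over the 60 libraries Ciart, Bhlhe40, Bhlhe41, Rora and Nfil3 thus had no neighbour as close as those listed for the PAR bZIP genes. Without the 16O library apart this did not hold for Ciart, Bhlhe41 and Rora. Usp2 (0.896), Pcsk4 (0.783) and Samd8 (0.764) were then closer to them than Nr1i3 was to Dbp (0.741).

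For Nfil3 they were Efna1 (0.79), Lbp (0.766), Slc11a2 (0.76), Tgm2 (0.755) and Saa3 (0.746). These rest in part on the 16O library at 12 months, since without it the values were 0.707, 0.621, 0.57, 0.549 and 0.531. Efna1 encodes an ephrin ligand, Slc11a2 a metal ion transporter and Tgm2 a transglutaminase.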

How the data were processed

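Livers of 60 mice were measured by ribosome-depleted, paired-end RNA sequencing. The authors mapped the reads in CLC Genomics Workbench to GRCm38 and deposited RPKM per transcript (reads over transcript length and library total). Group means were set aside, and 0 columns of single samples lacked a label. Depth was recovered from single-transcript genes: of the values up to 30 reads, 99.76% to 99.96% came out whole to within 0.02.

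RPKM were summed per gene. A gene entered a fit with 0.5 RPKM or more in 3 or more of its libraries. Library factors came from a trimmed mean without weights, with 30% of M and 5% of A values removed. The test was limma 3.58.1 (R 4.3.3), moderated with an intensity trend, on log2(RPKM + 0.1), and p-values were adjusted over all genes tested by Benjamini-Hochberg. Differences on that scale understate changes of low genes. Ions were compared with the 3 controls of a time point in 6 libraries, with each other in the 12 libraries of a time point, over time by a moderated F test in 15 libraries, and by ion-by-time terms in 60. Each test was tried on simulated data with known changes. P-values rest on the spread between mice within groups of 3, pooled over the groups of a fit and moderated over genes.

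The 8 members and all gene lists were chosen with earlier results of these data known, and carry no independent support. Named genes are the members, the 5 genes most correlated with each, Arntl, Nr1d1 and Per2 where a member was called, with up to 3 further called list genes by size of difference, and transcripts with at least 10% of a member's RPKM. Marco, Saa3 and Lbp in the library apart, Alb, Ttr, Sphk2, C920021L13Rik, Cyp2a5, Por, Elovl3 and Arntl at 4 months against control were named outside that rule, after their values were seen. Of the lists for fasting, hypoxia and non-parenchymal cells, 0 of 9, 0 of 5 and 0 of 18 genes tested passed in 28Si against control at 1 month. Positions are from GENCODE M21 and promoters from RefSeq. Equal replicate numbers were checked as pairs by correlating deviations from group means: all 3 were above 0.1 only for 16O at 12 months (0.373, 0.523 and 0.256), where no label says what the number marks. Alternatives were other scalings, pseudocounts, filters and sets of libraries, limma-voom on estimated reads, a replicate block, the highest transcript (chosen after seeing the data except against control), leaving out each library and, chosen after seeing the data, protein-coding transcripts alone.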

Additional observations from a re-analysis of the deposited data

Results flagged for a closer look

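In 4 cases all 3 mice of an ion lay above all 3 controls at 1 time point and below all 3 at another. This held for 2 of 8 members in 56Fe, 1 in 16O and 0 in 28Si mice, and for 8.41%, 6.2% and 3.64% of all genes tested at every time point. Dbp in 56Fe mice was above control at 1 month and below at 4 months, and its log2 difference from control differed by 1.11 between them. Tef in 56Fe mice was above control at 9 months and below at 2 and at 4 months, by 0.47 and 0.79. Nfil3 in 16O mice was above at 12 months and below at 2 months, by 1.40. Without replicate 2 at 12 months, the library apart, this difference was 0.50. Overlap was read on deposited RPKM and the log2 differences on scaled values. Divided by the library factors of the fit of all 60 libraries, Nfil3 in 16O overlapped control at both time points, and Tef in 56Fe overlapped control at 2 months. The difference between the 2 time points was not tested on its own in any of the 4. The ion-by-time F test over 5 time points gave adjusted p of 0.815 for Dbp and 0.468 for Tef in 56Fe and 0.376 for Nfil3 in 16O. The part of depth, handling and hour of the day in these differences was not tested.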

How the results depend on the processing

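Each called difference of a member between groups kept its sign under the alternatives that gave a value. At 1 month 4 ion against control calls became 2 with RPKM as deposited, without a filter and in the fit of all 60 libraries, and 7 with limma-voom. The 1 call between ions at 4 months became 0 with a pseudocount of 1, without a filter and with limma-voom, and the 0 at 9 months became 1 with the highest transcript. Over time, 5 calls in control became 3 without a filter and with all 60 libraries, 7 in 56Fe became 4 with the highest transcript, 4 in 16O became 2 without a filter or with the highest transcript and 8 with all 60 libraries, and 5 in 28Si became 8 with RPKM as deposited. For 28Si by time 0 became 1 with a pseudocount of 0.01 and with the highest transcript. The causes were not tested.

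Leaving out 1 library gave 1 to 5 calls against control at 1 month (1 without control replicate 1 or 2), 0 to 1 at 4 months (Ciart in 56Fe, without control replicate 1), and at 9 months 0 to 2, with 1 (Ciart in 56Fe) lacking control replicate 3 and 2 (Tef and Bhlhe40 in 56Fe) lacking 56Fe replicate 3, 12 to 13 between ions at 1 month, 0 to 2 at 2 months and 0 to 1 at 4 months. Over time it gave 4 to 6 in control, 5 to 8 in 56Fe, 1 to 7 in 16O (7 without replicate 2 at 12 months) and 4 to 6 in 28Si, and by time 0 to 1 in 56Fe and 16O and 0 to 2 in 28Si. At 2 and 12 months against control and at 9 and 12 months between ions it stayed at 0.

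With a replicate block, 5 members were called against control at 1 month in place of 4, Ciart in 16O being the one added (adjusted p = 0.029), 13 between ions at 1 month and 1 at 4 months, and 0 elsewhere, so the pairing lowered no count. RPKM as deposited moved the median of all genes by up to 0.197 (16O against 28Si at 4 months), and by under 0.1 at 1 month. Depth limits Ciart and Bhlhe41 most.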
